A study of Homo sapiens with 8 samples.

Results

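MicroRNA genes are short stretches of the genome whose transcripts fold into hairpins, and 147 of them gave enough signal to be read in nuclear RNA-tagging libraries of HEK293T, a transformed human embryonic kidney cell line. They were chosen as the rows of the gene count table whose symbol has the form of a numbered microRNA gene, such as MIR17 or MIRLET7D, and whose raw counts summed to at least 60 over the 4 nuclear libraries. The table lists 60664 genes, and 1818 of them have such a symbol. Of these 1818 loci, 852 had no count in the nuclear libraries and 1671 summed to less than 60. The summed count that chose the 147 loci is a description of them and is not tested. Because labelled and control libraries both enter that sum, 36 loci reached 60 through the labelled libraries alone, 37 through the controls alone, 46 in each pair separately and 28 only with all 4 libraries together. Counts and medians over the chosen loci are therefore descriptions, and each locus was tested in the fit of the whole table.

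A microRNA gene is first transcribed as part of a longer primary transcript, often a non-coding host RNA or an intron of a host mRNA. In the nucleus the Microprocessor, made of the nuclease DROSHA and its partner DGCR8, cuts the hairpin out of that transcript. The hairpin is carried to the cytoplasm by XPO5, trimmed by DICER1 and loaded into an Argonaute protein, where the seed, bases 2 to 8 of the mature strand, pairs with target mRNAs. The libraries described here were made from longer RNA, so a count at a microRNA gene is a read from any transcript that covers the hairpin, and reads of primary transcripts, host introns, host mRNAs and hairpins cannot be told apart.

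The mature strands of the loci that the results turn on are shown here 5′ to 3′, with the seed in capitals, as RefSeq gives them on GRCh38.p14. The table of RefSeq microRNAs held 128 of the 147 loci. The first lines are from loci in introns or in non-coding host RNAs, where both labelled libraries lay above both controls, though MIR18A did not pass the test. The let-7 family shares one seed, as do miR-221 and miR-222, so these loci are grouped by seed as well as by genomic cluster.
let-7a-5p: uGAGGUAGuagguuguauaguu
let-7f-5p: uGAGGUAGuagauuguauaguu
let-7d-5p: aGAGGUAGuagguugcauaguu
miR-221-3p: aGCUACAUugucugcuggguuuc
miR-222-3p: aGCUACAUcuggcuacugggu
miR-17-5p: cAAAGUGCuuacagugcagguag
miR-18a-5p: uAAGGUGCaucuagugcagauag
miR-92a-3p: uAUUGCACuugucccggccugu
miR-421: aUCAACAGacauuaauugggcgc
miR-4473: cUAGUGCUcuccguuacaagua
The next lines are from loci that lie within the transcripts of protein-coding genes, HSP90B1, PTMA and FSTL1 for the first lines and DDX5 and DGCR8 for the last.
miR-3652: cGGCUGGAggugugagga
miR-1244: aAGUAGUUgguuuguaugagaugguu
miR-198: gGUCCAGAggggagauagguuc
miR-5047: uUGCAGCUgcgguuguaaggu
miR-3618: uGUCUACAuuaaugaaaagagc
miR-1306-5p: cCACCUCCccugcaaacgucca
Besides the let-7 strands and the pair miR-221 and miR-222, shared seeds among the 147 loci were AAGAUGG in miR-4426 and miR-4647, UAUACAA in the 3′ strands of let-7a and let-7f-1, and CGCUUUC in the copies of miR-4315.

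The cells expressed APEX2, a peroxidase that tags nearby RNA with biotin, fused either to a nuclear localisation signal (NLS) or placed on the outer mitochondrial membrane (OMM). RNA held on streptavidin beads was sequenced for 2 labelled and 2 unlabelled control libraries per compartment, 8 in all, and all groups, controls included, are HEK293T cells described as carrying the enzyme. A kit for stranded total RNA was used at NLS and one that selects poly(A) RNA at OMM, so compartment, kit and RNA selection cannot be told apart. The controls measure RNA recovered without labelling, and nothing in the labels says that libraries of a group were grown apart. The p-values hence reflect library-to-library spread alone, which may be technical.

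Libraries are named by the number in their column, 1 and 3 at NLS. At NLS the total counts were 20746393 (control 1), 21096586 (control 3), 9531568 (labelled 1) and 8039176 (labelled 3). A floor of 3 counts, the limit that a count of 0 allows, corresponded at NLS to 0.171 to 0.311 CPM, counts scaled to library size, and at OMM to 0.0567 to 0.0847 CPM. It covers counting error only. NEAT1, a nuclear RNA, stood at 86.7 and 100 CPM in the NLS controls and at 1274 and 1440 CPM in the labelled libraries. MT-CO1, an mRNA of the mitochondrial genome, fell by 2.58 on the log2 scale. HBB, ALB and CDH5, markers of red cells, liver and endothelium, had at most 2 counts in each pair of NLS libraries, and PTPRC and CD3E, of blood cells, had at most 39. The fibroblast gene COL1A1 had 256 counts in the controls and 126 in the labelled libraries. The HEK293T genes VIM, LIN28B, NEFL and NEFM were all detected. PAX2, from the same list, was lower than COL1A1, with 120 counts in the controls and 105 in the labelled libraries.

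Of the 147 loci, 146 passed the filter on low counts. In the labelled NLS libraries 38 were higher and 29 lower at an adjusted p under 0.05, and 79 did not pass (edgeR's quasi-likelihood test with Benjamini-Hochberg adjustment over all genes). Over all 20858 genes tested, 28.8% were higher and 28.5% lower. In either direction 67 of the 146 loci were called, beside 57.3% of all genes. The number of calls changed with the library left out. A group left with 1 library is assumed to vary like the other group, and the controls spread more. Chi-square per degree of freedom between libraries of a group was 23.5 in the controls and 4.55 in the labelled pair, without allowance for depth. Calls with a library left out thus also depend on which pair gives the spread. The higher loci numbered 16 without labelled library 1 (14.5% of all genes) and 16 without labelled library 3 (13.8%), and 62 without control library 3 (40.7%). The lower loci numbered 54 without control library 1 (33.6% of all genes), 13 without labelled library 3 (20.2%) and 16 with libraries scaled by size alone (16.1%). Both labelled libraries lay above both controls for 57 of the 147 loci and below both for 52, where 45.1% of all tested genes lay above and 37.7% below. The median log2 fold change was 0.14 for the chosen loci and 0.14 for all genes. With libraries scaled by their size alone, the median of all genes moved to 0.66, and changes are best read relative to it. MIR3614 is the locus that was not tested, with control counts of 10 and 58 and labelled counts of 4 and 5.

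The loci were grouped by position in the gene annotation, the finer groups after the data were seen, and differences between groups were not tested. Under GENCODE 29, 76 of the 147 hairpins overlapped an mRNA exon of the same strand, 44 wholly and 32 in part. A further 19 lay under an exon of another transcript only, such as a retained intron or a long non-coding RNA. Another 15 lay in an intron against an exon, 3 of them at both ends, and 26 lay in an intron at least 53 bases away from any exon of the host. The remaining loci were 6 inside another small RNA gene, 4 in no other gene and 1 antisense to a gene only. At the 44 wholly under an mRNA exon a spliced host mRNA can give the same reads as a primary transcript. At the 32 partly under one this holds only for the exonic stretch, which was 1 of 77 bases at MIR7703 and 22 of 102 at MIR3940. No source used here names the authors' gene models, which may differ from GENCODE 29.

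The choice of loci by count bears on these groups, so the summed CPM of every locus of a group, chosen or not, is given first, without a test. The 754 loci in introns away from exons summed to 43.0 and 66.7 CPM in the controls and to 325 and 339 CPM in the labelled libraries, a ratio of 6.06. The 153 loci under other exons only summed to 64.8 and 71.8 CPM against 177 and 180 CPM, a ratio of 2.61. In these groups both labelled libraries lay above both controls. The 93 loci wholly under an mRNA exon went the other way, from 385 and 467 CPM to 286 and 249 CPM, a ratio of 0.628. The 60 loci partly under an mRNA exon went from 331 and 394 CPM to 193 and 160 CPM, a ratio of 0.487. These sums are set by the loci with most reads. The 49 and 28 loci under mRNA exons that stayed below 60 counts had ratios of 1.94 and 1.88, above 1 like all the low loci. Over all 1818 loci the sums were 922 and 1141 CPM in the controls and 1185 and 1111 CPM in the labelled libraries, which overlap. A read that lies under 2 microRNA genes may be counted more than once in such sums.

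Among the chosen loci, the 26 in introns away from exons had a median log2 fold change of 2.63. Of these, 17 were higher and 0 lower, beside 28.8% and 28.5% of all genes, and 25 of 26 values were above 0. Here 19 of 26 loci reached 60 counts through the labelled libraries alone, and 16 of the 17 called loci are among them, so the choice favours high values in this group. The 75 tested loci under an mRNA exon had a median of -0.88, with 8 higher and 25 lower. That lower share was near the 28.5% of all genes. Of the 44 wholly and 32 partly under one, 18 and 15 reached 60 counts through the controls alone, so the choice favours low values there. Of the 7 and 1 called higher, 5 and 1 reached it through the labelled libraries alone. Loci under other exons only had a median of 1.54, with 8 of 19 higher and 1 lower. Of these 8 higher loci, 4 reached 60 counts through the labelled libraries alone. Those in an intron next to an exon had a median of 0.16, with 2 higher and 2 lower of 15. Without labelled library 1, 6 intron loci away from exons were higher (14.5% of all genes), and without labelled library 3, 7 were (13.8%). Lower loci under mRNA exons numbered 44 without control library 1 (33.6% of all genes were lower), 13 without labelled library 3 (20.2%) and 15 with libraries scaled by size alone (16.1%).

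**Figure D1:**
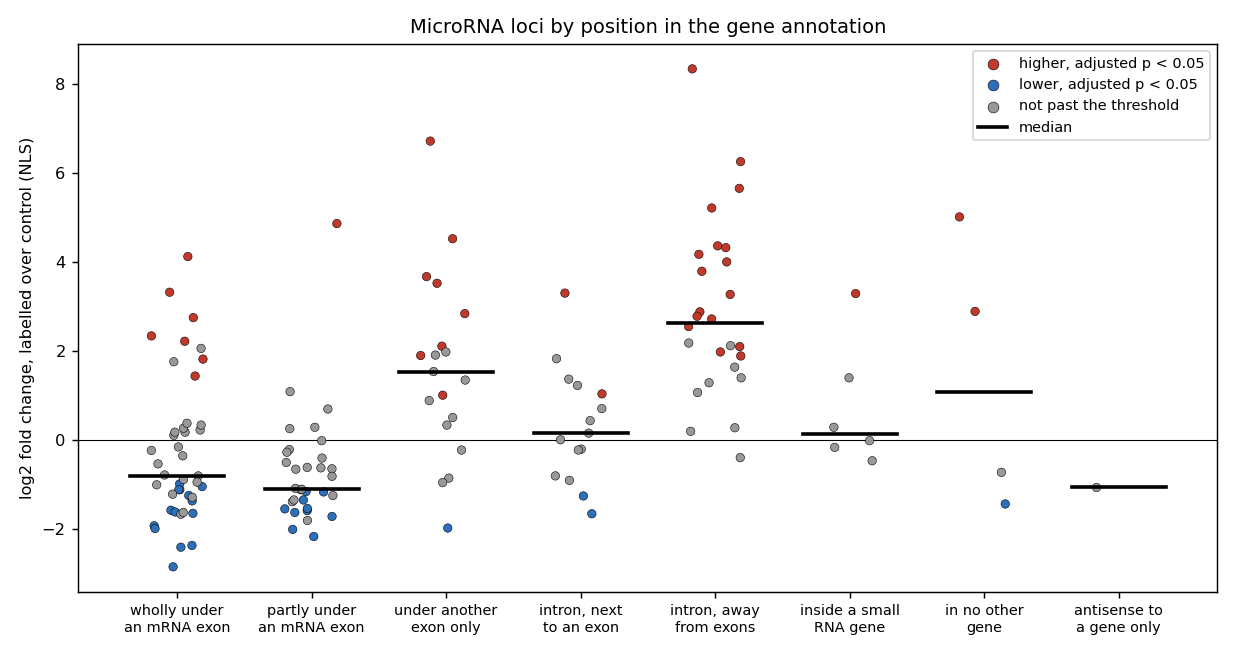
Log2 fold change of labelled over control NLS libraries (vertical axis) for the 146 tested microRNA loci, grouped along the horizontal axis by position in GENCODE 29; each point is 1 locus, coloured by its edgeR call, and bars are medians. Most loci under mRNA exons lie below 0, with medians of -0.80 and -1.09, and 25 of 26 intron loci away from exons lie above it. The choice of loci by summed count favours both directions. The height of the 5 loci with 3 or fewer control counts depends on the prior count of the fit.

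The let-7 cluster on chromosome 9 was higher at all 3 of its loci. Its microRNAs are held low in embryonic cells by LIN28 proteins, which bind their precursors. MIRLET7F1 (ENSG00000199072, chromosome 9, 94176347 to 94176433, plus strand, GRCh38) measured 0.343 and 0.576 CPM in the controls and 9.10 and 10.2 CPM in the labelled libraries. Its log2 fold change was 4.36 ± 0.46 (SE, n = 2 libraries per group, edgeR adjusted p = 0.000129). MIRLET7A1, at 94175957 to 94176036, measured 1.03 and 0.691 CPM against 6.18 and 3.95 CPM, a log2 fold change of 2.55 ± 0.55. MIRLET7D, at 94178834 to 94178920, measured 0.571 and 0.691 CPM against 3.18 and 2.28 CPM, a log2 fold change of 2.10 ± 0.70 (edgeR adjusted p = 0.033). The call of MIRLET7D was lost by DESeq2 (adjusted p = 0.0504) and without labelled library 1 (edgeR adjusted p = 0.42) or 3 (0.208), and that of MIRLET7A1 without labelled library 1 (0.172). In each locus both labelled libraries lay above both controls. The nearest exon of the host transcript in GENCODE 29 lay 9576 to 12453 bases away. MIRLET7A1HG, the transcript that the count table names as host, measured 11.3 and 9.21 CPM against 76.1 and 83.1 CPM, a log2 fold change of 2.96 ± 0.15. In GENCODE 29 its identifier covers only chromosome 9 from 94176458 to 94177892, between the let-7f and let-7d hairpins.

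On chromosome X, miR-221 and miR-222, regulators of the KIT receptor and of the cell-cycle inhibitor CDKN1B, lie in introns of MIR222HG. MIR221 measured 0.971 and 1.55 CPM in the controls and 5.21 and 4.15 CPM in the labelled libraries, a log2 fold change of 1.89 ± 0.52. MIR222 measured 0.628 and 0.403 CPM against 4.15 and 3.01 CPM, a log2 fold change of 2.78 ± 0.67. Both loci had separate groups, and their host rose from 9.08 and 10.4 CPM to 62.4 and 65.1 CPM, a log2 fold change of 2.71 ± 0.15. The hairpins lie 57 and 915 bases from an exon of it. Both calls were lost with 1 labelled library left out, at an edgeR adjusted p of 0.234 and 0.111 for MIR221 and of 0.213 and 0.0784 for MIR222.

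Several intron loci had next to no reads in the controls. MIR4473 (chromosome 9, 20411148 to 20411238, minus strand), in an intron of MLLT3, had 0 counts in both controls, and 32 and 28 after labelling. It was at least 16.7-fold higher, against a floor of 3 counts per control library, while MLLT3 itself stood at 98.7 and 90.3 CPM against 105 and 108 CPM and did not pass the test (with libraries scaled by size alone it did, at 0.69). MIR421, in an intron of the non-coding RNA FTX, had 0 and 3 counts against 34 and 39, a CPM ratio of 40.5 (95% exact interval 13.3 to 201, counting error only). FTX itself rose by 3.04 ± 0.13 on the log2 scale. MIR2278, in an intron of AOPEP, had 2 and 0 counts against 41 and 29, a ratio of 58.3 (15.5 to 491). MIR3939 (chromosome 6, 166997807 to 166997912, minus strand) had 0 and 0.23 CPM against 7.77 and 11.1 CPM, a log2 fold change of 6.25 ± 0.78. The call of MIR2278 was lost without labelled library 1 (edgeR adjusted p = 0.0598) and that of MIR421 without labelled library 3 (edgeR adjusted p = 0.072).

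Host and hairpin did not always go together. MIR590, in an intron of the translation factor gene EIF4H, rose from 0.343 and 0.921 CPM to 4.68 and 3.74 CPM (log2 fold change 2.72 ± 0.67), whereas EIF4H fell from 269 and 224 CPM to 131 and 116 CPM (edgeR adjusted p = 0.00026). MIR553 rose by 4.17 ± 0.85 while its host RTCA changed by -0.55 ± 0.11. MIR3975 rose by 1.98 ± 0.64 while GALNT1 changed by -1.55 ± 0.12. These 3 were chosen after their values were seen, as the loci away from exons that were called higher while their host was called lower. RTCA stood at -0.03 with libraries scaled by size alone. The calls of MIR590 and MIR3975 were lost with either labelled library left out (edgeR adjusted p = 0.0703 to 0.151 and 0.239 to 0.329) and that of MIR553 without labelled library 3 (edgeR adjusted p = 0.0736). MIR3609, in an intron of TRRAP, is the exception among the 26 to positive values. It measured 2.46 and 13.4 CPM in the controls and 8.57 and 3.43 CPM in the labelled libraries, which overlap, and its log2 fold change was -0.39 ± 0.72 (edgeR adjusted p = 0.67). It turned to 1.31 without control library 3, and was called lower, at -1.13, without control library 1. TRRAP turned from -0.33 to 0.19 with libraries scaled by size alone.

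**Figure D2:**
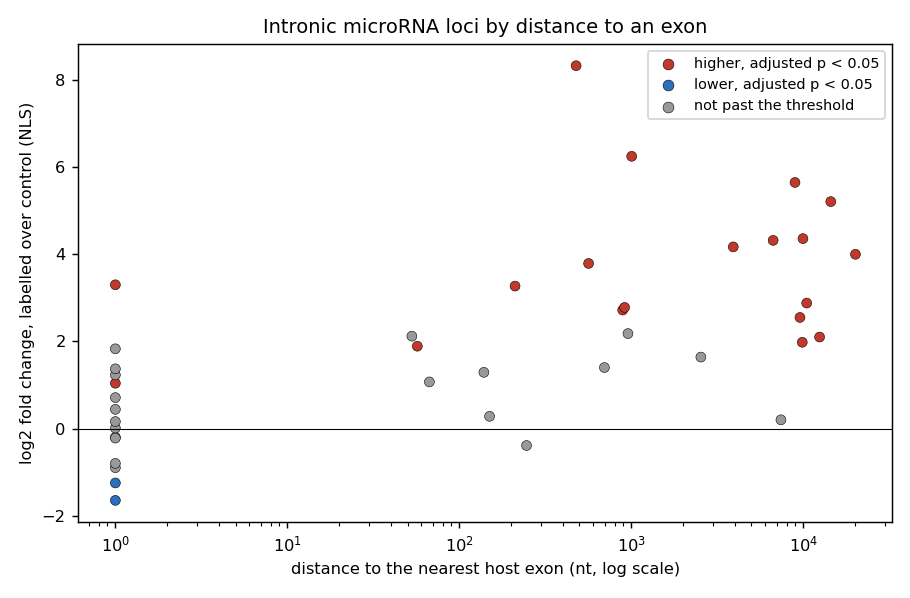
Log2 fold change of labelled over control NLS libraries (vertical axis) against the distance from the hairpin to the nearest exon of its host in bases (horizontal axis, log scale) for the 41 intron loci; each point is 1 locus, coloured by its edgeR call. The 15 loci at 1 base from an exon lie on both sides of 0, and those at 53 to 20128 bases lie above it but for MIR3609.

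Of the 15 loci against an exon, MIR6807, MIR6892 and MIR877 fill the whole intron between neighbouring exons, the position of mirtrons, hairpins that splicing rather than DROSHA releases. None of these 3 passed the test. MIR6892 (log2 fold change 1.83, edgeR adjusted p = 0.147) passed without control library 1 (0.0321) or 3 (7.38e-11) and with no filter on low counts (0.028), and MIR877 (0.16, edgeR adjusted p = 0.894) passed without control library 1 (0.0457). MIR6892 and MIR877 are named after their values were seen. Among the 12 with a single end against an exon, 2 fell and 2 rose. MIR6515, 32 bases from the exon on its other side in an intron of the chaperone gene CALR, fell from 8.05 and 9.67 CPM to 3.62 and 3.84 CPM (log2 fold change -1.25 ± 0.31). MIR6728, 527 bases from the exon on its other side in the glycolytic gene ENO1, fell from 11.3 and 6.91 CPM to 3.44 and 2.28 CPM (-1.65 ± 0.40, against -1.63 ± 0.12 for ENO1). MIR6807, in TRIM28, had 4.80 and 7.14 CPM against 3.18 and 3.22 CPM and did not pass (edgeR adjusted p = 0.0789). The 2 that rose are MIR6739, from 0.628 and 0.691 CPM to 6.18 and 6.96 CPM (3.30 ± 0.48), and MIR7111, from 2.91 and 2.99 CPM to 6.98 and 5.19 CPM (1.04 ± 0.38, edgeR adjusted p = 0.0458). The host of MIR6739 is the importin gene IPO9, which changed by 0.53 ± 0.09, and that of MIR7111 is the ribosomal protein gene RPL10A, which changed by -1.56 ± 0.12. MIR7111 and MIR6739 are named after their values were seen. With 1 labelled library left out the edgeR adjusted p was 0.102 to 0.117 for MIR6515 and 0.174 to 0.449 for MIR7111, MIR6515 also missing the threshold with library size scaling (0.0806), and without labelled library 3 it was 0.0907 for MIR6728. MIR7111 did not pass by DESeq2 (adjusted p = 0.114), and MIR6807 passed without control library 1 (edgeR adjusted p = 0.000385).

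MIR17, MIR18A and MIR92A1 lie within 1 stretch of chromosome 13 and belong to the miR-17 to miR-92a cluster, a growth-promoting cluster transcribed as the non-coding RNA MIR17HG. MIR17 (91350605 to 91350688, plus strand) measured 1.89 and 1.67 CPM in the controls and 7.42 and 7.99 CPM in the labelled libraries, a log2 fold change of 2.11 ± 0.38. MIR92A1 (91351314 to 91351391) measured 0 and 1.21 CPM against 6.89 and 7.16 CPM, a log2 fold change of 3.52 ± 1.00 (edgeR adjusted p = 0.0176). MIR18A (91350751 to 91350821) measured 1.60 and 0.403 CPM against 4.33 and 3.22 CPM, and its log2 fold change of 1.91 ± 0.72 did not pass (edgeR adjusted p = 0.0524). All 3 had separate groups, and MIR17HG rose from 46.1 and 35.5 CPM to 195 and 249 CPM, a log2 fold change of 2.44 ± 0.16. MIR92A1 did not pass by DESeq2 (adjusted p = 0.222) or without labelled library 3 (edgeR adjusted p = 0.0514), and MIR18A passed with either control left out (edgeR adjusted p = 2.34e-08 and 0.00443). MIR612, in the exon of NEAT1, the scaffold of paraspeckles, had 0 and 2 counts against 87 and 59, a CPM ratio of 122 (95% exact interval 33.0 to 1013, counting error only). NEAT1 rose by 3.86 ± 0.13.

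DDX5 is an RNA helicase that assists the Microprocessor, and its gene holds 2 of the chosen hairpins in introns that some of its annotated transcripts retain. MIR3064 (chromosome 17, 64500774 to 64500839, minus strand) rose from 19.3 and 16.4 CPM to 31.4 and 40.4 CPM, a log2 fold change of 1.01 ± 0.19. MIR5047 (64501214 to 64501313) rose from 6.34 and 11.6 CPM to 34.2 and 32.9 CPM, a log2 fold change of 1.90 ± 0.27. DDX5 as a whole went the opposite way, from 1296 and 1415 CPM to 834 and 897 CPM, a log2 fold change of -0.65 ± 0.11. With libraries scaled by size alone DDX5 stood at -0.13 and did not pass (edgeR adjusted p = 0.318). These loci and those of DGCR8 were named after their values were seen, as clusters of a Microprocessor gene.

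The mRNA of DGCR8 carries hairpins that the Microprocessor itself is known to cut. MIR3618, in the 5′ UTR of DGCR8 on chromosome 22 (20085746 to 20085833, plus strand), rose from 3.14 and 1.55 CPM to 7.07 and 5.71 CPM, a log2 fold change of 1.44 ± 0.46 (edgeR adjusted p = 0.0277). The call was lost without labelled library 1 (edgeR adjusted p = 0.252) or 3 (0.12). MIR1306, in its coding sequence (20086058 to 20086142), rose from 1.31 and 1.90 CPM to 8.39 and 7.99 CPM, a log2 fold change of 2.34 ± 0.40. DGCR8 rose from 100 and 72.7 CPM to 219 and 226 CPM, a log2 fold change of 1.36 ± 0.15.

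**Figure D3:**
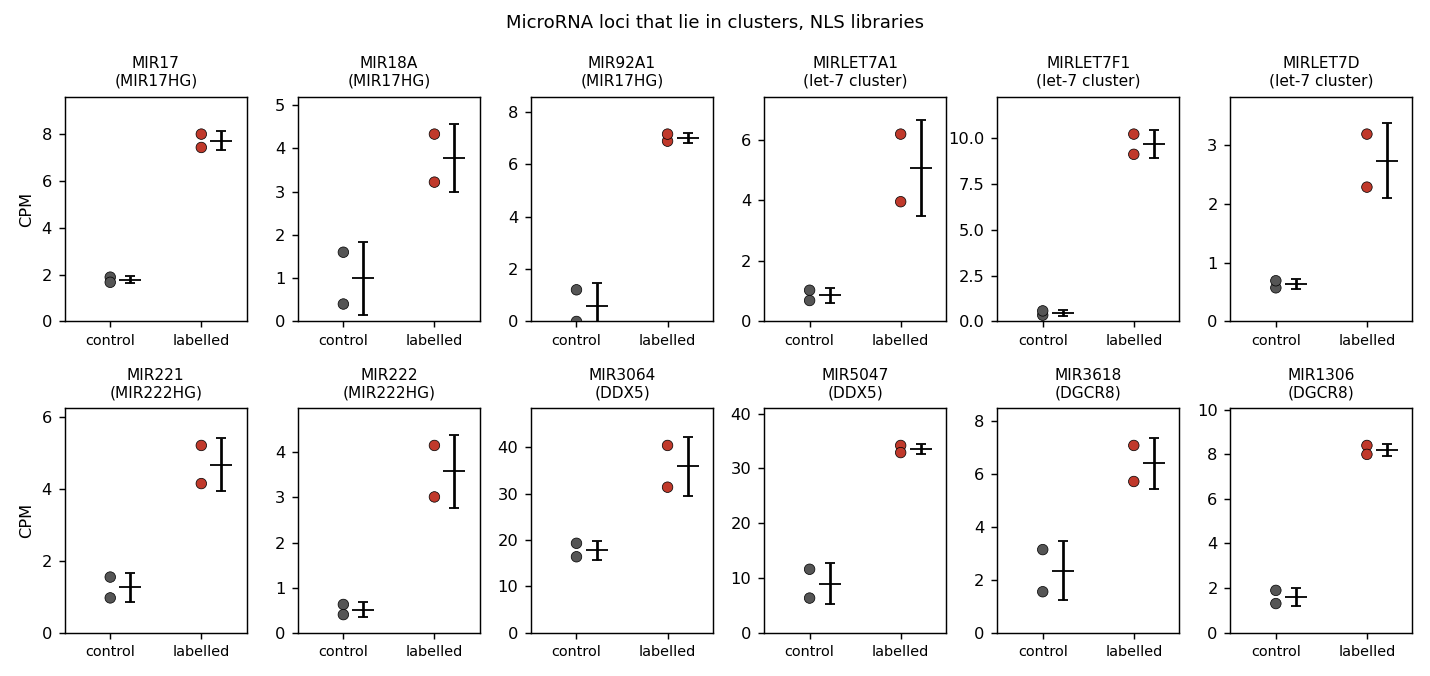
CPM (vertical axes, each from 0) of 12 microRNA loci that lie in clusters in the 4 NLS libraries; points are libraries, and the line and bar beside them are the mean and SD of the 2 libraries of a group, with the host or cluster in the panel title. In each of the 12 loci both labelled libraries lie above both controls, as they do for 45.1% of all tested genes. The loci of MIR222HG, DDX5 and DGCR8 fall outside the rule for named loci, and those of DDX5 and DGCR8 were chosen after their values were seen. MIRLET7F1 is at 0.343 and 0.576 against 9.10 and 10.2 CPM.

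Loci under mRNA exons made up the bulk of the counts. MIR3652 (ENSG00000284503, chromosome 12, 103930425 to 103930555, plus strand) lies wholly in the 5′ UTR of HSP90B1, an endoplasmic reticulum chaperone. It fell from 138 and 150 CPM to 76.1 and 56.9 CPM, a log2 fold change of -1.11 ± 0.14 (edgeR adjusted p = 0.000381), and HSP90B1 fell by 1.46 on the log2 scale. MIR3940, partly under coding sequence of the splicing regulator KHSRP, fell from 88.1 and 104 CPM to 34.8 and 29.2 CPM (-1.58 ± 0.14, against -1.61 ± 0.12 for KHSRP). MIR4444-1, in the 5′ UTR of HNRNPA3, fell from 42.8 and 56.6 CPM to 22.3 and 19.8 CPM (-1.24 ± 0.18). MIR636, partly under coding sequence of the splicing factor SRSF2, fell from 53.6 and 59.5 CPM to 27.5 and 23.2 CPM (-1.16 ± 0.15). The whole of MIR636 also lies opposite MFSD11 on the other strand, and the strand setting of the counting is not given.

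The largest fall among the 146 tested loci was at MIR1244-1, in the 3′ UTR of PTMA, the gene of prothymosin alpha, on chromosome 2 (231713314 to 231713398, plus strand). It went from 24.3 and 22.7 CPM to 2.47 and 4.15 CPM, a log2 fold change of -2.84 ± 0.28 (edgeR adjusted p = 0.0001), against -1.74 ± 0.13 for PTMA. The microRNA has numbered copies elsewhere, so the assignment of its reads is uncertain. MIR4709, in the 3′ UTR of the cholesterol carrier gene NPC2, fell from 8.05 and 9.15 CPM to 1.59 and 1.66 CPM (-2.40 ± 0.36). MIR7705, in the 3′ UTR of the poly(A)-binding protein gene PABPC1, fell from 7.83 and 7.43 CPM to 1.68 and 2.18 CPM (-1.98 ± 0.37). MIR3917, partly under the 5′ UTR of the tubulin regulator gene STMN1, fell from 18.2 and 21.1 CPM to 3.97 and 5.92 CPM (-2.00 ± 0.27). In these loci both labelled libraries lay below both controls. MIR639, at TECR, fell from 6.85 and 10.4 CPM to 2.56 and 1.25 CPM (-2.16 ± 0.45) and lies opposite DNAJB1. MIR4683, at the Wnt receptor gene FZD8, fell from 3.66 and 1.84 CPM to 0.442 and 0.623 CPM (-2.36 ± 0.73, edgeR adjusted p = 0.0244). That call was lost by DESeq2 (adjusted p = 0.0521), with library size scaling (edgeR adjusted p = 0.0611), and without labelled library 1 (0.247) or 3 (0.175).

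Loci under mRNA exons were also counted by the part of the mRNA, to be read against the 28.8% of all genes called higher and 28.5% called lower. The 13 tested loci under a 3′ UTR had a median log2 fold change of -1.61, with 8 lower and 1 higher. The 38 under coding sequence had a median of -0.82, with 9 lower and 2 higher. The 24 under a 5′ UTR had a median of -0.44, with 8 lower and 5 higher. Their hosts had medians of -1.22, -0.14 and -0.67, and the difference between the mRNA parts was not tested. Full and partial overlap are mixed unequally in these groups, as all loci under a 3′ UTR lay wholly under the exon. The 14 wholly under coding sequence had a median of -0.61, with 3 lower and 2 higher. The 16 wholly under a 5′ UTR had a median of 0.21, with 3 lower and 4 higher. The 8 loci under mRNA exons that rose include MIR3618 and MIR1306 of DGCR8. Among the others, MIR3175, partly under the 5′ UTR of the chromatin remodeller gene CHD2, rose from 0.171 and 0.23 CPM to 6.89 and 5.30 CPM (4.86 ± 0.60), and CHD2 rose by 1.33 ± 0.09. MIR423, in the 5′ UTR of NSRP1, rose from 0.171 and 0.403 CPM to 2.38 and 3.53 CPM (3.32 ± 0.84), with the whole hairpin opposite AC104984.5. MIR378I, in the 3′ UTR of TNFRSF13C, rose by 4.12 ± 0.96 and its host by 3.76 ± 0.25. These 3 were named after their values were seen. The calls of MIR423 and MIR378I were lost with 1 labelled library left out (edgeR adjusted p = 0.0837 to 0.238 and 0.0743 to 0.223).

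Host genes were called for 111 of 133 tested, 41 higher and 70 lower, with a median log2 fold change of -0.37, where 57.3% of all genes were called, 28.8% higher and 28.5% lower. For loci wholly under an mRNA exon, the log2 fold changes of locus and host had a Spearman correlation of 0.84 over 43 loci, and 21 of the 43 lay above their host. For loci partly under an mRNA exon it was 0.64 over 32 loci. For intron loci away from exons it was 0.30 over 22 loci. Of the 22, 19 lay above their host, by a median of 2.37 on the log2 scale. In this position group 19 of 26 loci reached 60 counts through the labelled libraries alone. The hosts were not chosen by count, so the choice favours loci above their host here. All points share the same 4 libraries, and a locus under an exon can share reads with its host, so these correlations are descriptions across loci. The hairpins also differed in composition, with a median GC content of 62.4% under mRNA exons (68 loci with a RefSeq hairpin) and of 47.3% in introns away from exons (22 loci), and the part of composition in the fold changes was not tested.

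**Figure D4:**
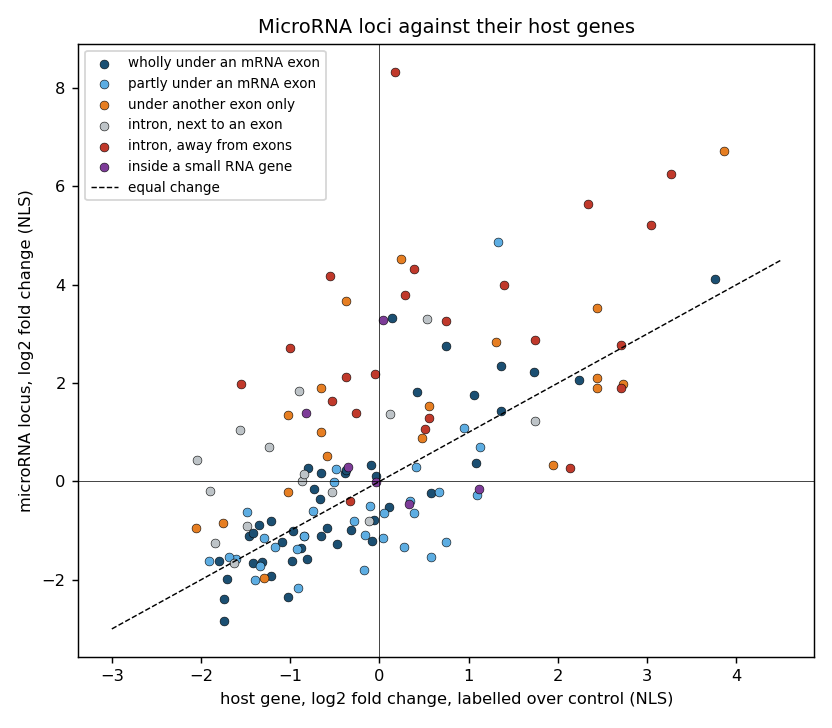
Log2 fold change of each microRNA locus (vertical axis) against that of its host gene (horizontal axis) in the NLS libraries, coloured by position; each point is 1 locus and the dashed line marks equal change. Loci wholly under an mRNA exon follow the line (Spearman correlation 0.84 over 43 loci), and 19 of 22 intron loci away from exons lie above it. The choice of loci by summed count favours high values in that intron group.

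Another 6 loci lie inside small nucleolar or Cajal body RNA genes, which guide the modification of other RNAs, and their counts nearly equal those of the enclosing gene. MIR6516 had control counts of 192 and 454 and labelled counts of 198 and 150, where SCARNA16 had 196, 473, 212 and 159. MIR1248 had 33, 138, 38 and 62 counts where SNORA81 had 36, 148, 47 and 72. The same reads thus appear to be listed under both genes. For both microRNAs the groups overlapped and the test was not passed. MIR3651 and MIR1291, inside SNORA84 and SNORA2C, did not pass either, at log2 fold changes of 0.29 ± 0.56 and -0.46 ± 0.70. MIR664A is the 1 of the 6 that rose, from 0.0571 and 0.46 CPM to 2.30 and 2.91 CPM (3.29 ± 1.00, edgeR adjusted p = 0.0231, and 0.157 to 0.263 with 1 labelled library left out). In MIR6516, MIR1248, MIR1291 and MIR3609 control library 3 held more CPM than control library 1 and than either labelled library. Without control library 3 MIR6516 turned to 0.59 and MIR1248 to 1.35, and both were then called higher. Without control library 1 they were called lower, at -0.67 and -0.73, and MIR1291 was lower and MIR3651 higher, with edgeR adjusted p of 0.0262 and 0.0462.

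Few loci in no other gene reached 60 counts, 4 of 360. MIR30B had 0 and 3 counts against 36 and 28, a CPM ratio of 35.5 (95% exact interval 11.6 to 177, counting error only). MIR4787 rose from 0.743 and 1.04 CPM to 8.04 and 5.19 CPM (2.89 ± 0.49). Both MIR30B and MIR4787 reached 60 counts through the labelled libraries alone, so the choice favours high values there. MIR4521 went the other way, from 8.17 and 13.7 CPM to 4.86 and 3.22 CPM (-1.43 ± 0.37, edgeR adjusted p = 0.0119). MIR621 had 2.86 and 2.13 CPM against 1.77 and 1.25 CPM (edgeR adjusted p = 0.317). The 1 locus antisense to a gene only, MIR4767, had 0.743 and 2.19 CPM against 0.972 and 0.415 CPM, and was called lower without control library 1, at -1.61. MIR30B lost its call with either labelled library left out (edgeR adjusted p = 0.0592 to 0.0876), MIR4787 without labelled library 1 (0.0684) and MIR4521 without labelled library 3 (0.11) or with library size scaling (0.0642).

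At the edge of the choice, MIR4473, MIR6835 and MIR6837 had 60 counts each and MIR4453, MIR4785 and MIR548U had 58 each. MIR6835 had 12 and 21 counts in the controls against 15 and 12, and MIR6837 had 5 and 6 against 30 and 19. Just outside, MIR548U had 0 and 5 counts against 23 and 30, MIR4453 had 12 and 0 against 24 and 22, and MIR4785 had 23 and 21 against 8 and 6. Of these, MIR4473, MIR6837 and MIR548U passed the test, MIR6837 and MIR548U losing it with either labelled library left out (edgeR adjusted p = 0.19 to 0.374 and 0.101 to 0.277), and MIR4453 passed with either control left out (3.63e-08 and 0.00539).

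The same loci were then read in the OMM libraries, which took no part in the choice. Of the 26 intron loci away from exons, 22 had 0 counts in all 4 OMM libraries. The other 4, MIR573, MIR548D1, MIR7161 and MIR4292, had all their counts in a single library each. The 76 loci under mRNA exons had a median of 442 summed OMM counts, and 62 of them reached 60. MIR1244-1 had most, with control counts of 6108 and 5398 and labelled counts of 5792 and 6811. Loci under other exons only had a median of 2 summed counts, with 7 of the 19 at 60 or more. MIR17, MIR92A1 and MIR612 had 0, whereas MIR3064 and MIR5047 of DDX5 had 1243 and 1072. The OMM libraries held 34705126 to 52421161 total counts and 14356 to 16741 detected genes, where the NLS libraries had 24931 to 31638. Chi-square per degree of freedom was 181 between the OMM controls and 225 between the labelled OMM libraries. Those 22 intron loci were thus not detected in these poly(A) libraries, whether labelled or not, and why was not tested.

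**Figure D5:**
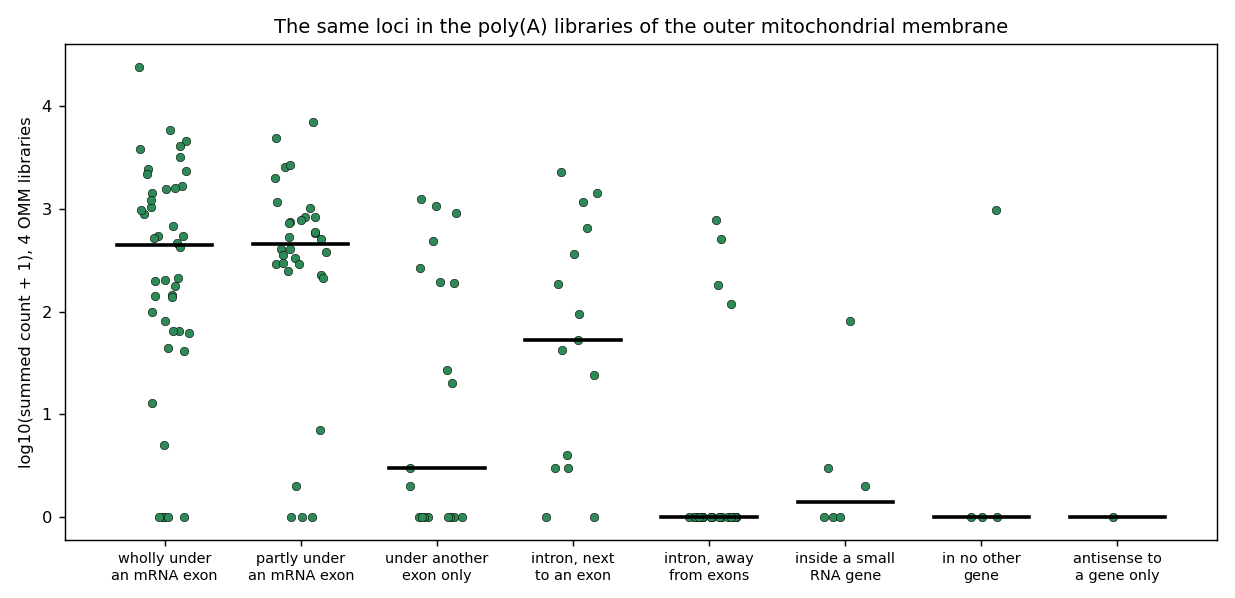
Summed raw count over the 4 poly(A) OMM libraries, as log10(count + 1) (vertical axis), of the 147 loci grouped by position (horizontal axis); each point is 1 locus and bars are medians. Loci under mRNA exons have medians of 442 and 454 counts, and 22 of 26 intron loci away from exons sit at 0.

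No locus passed the edgeR test at OMM. Of 68 tested, 0 were higher and 0 lower, where 0.139% and 0.0554% of all genes were called; 6 had an unadjusted p under 0.05, and DESeq2 called 5 higher and 5 lower, where it called 6.53% and 5.7% of all genes. The labelling effect itself was compared between compartments for 67 loci with an interaction term, and 4 passed, where 4.11% of 14243 genes were called higher and 8.92% lower at NLS than at OMM. At MIR1244-1 the log2 effect at NLS was lower than at OMM by 2.51 ± 0.46 (edgeR adjusted p = 0.0185). MIR198, in the 3′ UTR of FSTL1, fell at NLS from 4.74 and 10.7 CPM to 2.30 and 1.77 CPM and measured 9.26 and 7.73 CPM in the OMM controls against 46.4 and 25.8 CPM in the labelled OMM libraries. Its fall at NLS did not pass without labelled library 3 (edgeR adjusted p = 0.0809).

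The genes of the microRNA pathway were read by the same test, from a list of 27 of which 26 were tested. Of these 10 were higher and 10 lower, beside the 28.8% and 28.5% of all genes, and their median log2 fold change was 0.01. DROSHA did not pass, at 210 and 213 CPM in the controls and 213 and 198 CPM in the labelled libraries. Among the 9 tested genes of the Microprocessor and its cofactors 2 rose, DGCR8 and the helicase DDX17 (1.11 ± 0.13), and 6 fell, among them KHSRP and LIN28B (-1.55 ± 0.10), a blocker of let-7 processing. In the export step both genes fell, XPO5 by 0.39 and the GTPase RAN by 1.76 on the log2 scale, with SE of 0.09 and 0.10. DICER1 fell from 343 and 298 CPM to 197 and 193 CPM (-0.72 ± 0.10), and its partner PRKRA rose (1.00 ± 0.13). Of 8 genes of the effector complex 6 rose and 0 fell, with AGO3 at 1.07 ± 0.10. Among the 6, AGO1 (0.28 ± 0.11, edgeR adjusted p = 0.0498) and MOV10 (0.33 ± 0.12, edgeR adjusted p = 0.0454) lay close to the threshold. AGO2 did not pass the test, at 239 and 204 CPM against 207 and 206 CPM. DIS3L2, which degrades uridylated let-7 precursors, rose by 1.40 ± 0.13. Scaling by library size alone turned XPO5 to 0.13 and ended its call, left DICER1 at -0.20 (edgeR adjusted p = 0.143), and put DROSHA at 0.48 and AGO2 at 0.42, both then called higher. These are values of mRNA and pre-mRNA in the pulldown, and fewer molecules and less capture per molecule cannot be told apart.

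By the authors' deposited table, 33 of the 147 loci were higher and 23 lower at an adjusted p under 0.05, where 22.1% and 20.2% of all genes in that table were. All 56 were also called here, with the same sign.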

How the data were processed

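The authors deposited raw read counts per gene, made with STAR and HTSeq per the submitters' processing notes, and, in a separate table, the authors' log2 fold changes and p-values per gene, DESeq2 being named in those notes. Versions, strand setting and the handling of overlapping genes are not given there. The series text gives release with Proteinase K (NLS) or TRIzol (OMM), whereas sample labels name an RNeasy kit. Count columns were assigned to groups by their names, as their numbers could not be matched to sample titles. A further 4 count columns and 2 comparison columns matched no sample group and were not used.

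Counts were fitted with edgeR 4.0.16 in R 4.3.3 (robust quasi-likelihood F test, TMM factors, filterByExpr with minimum count 10, prior count 0.125), NLS and OMM apart, with two-sided p-values adjusted over all genes and a threshold of 0.05. SE was taken as the log2 change over the root of F. CPM used TMM-scaled library sizes. DESeq2 1.42.0, other scaling, no filter, a replicate block and left-out libraries were alternatives. The fit was tested on simulated data. Positions come from GENCODE 29 (GRCh38); of 128 RefSeq hairpins (GRCh38.p14), 127 had the same coordinates. A host is the same-strand gene, not itself a small RNA, that spans the hairpin.

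Named loci were the 4 with most counts in each position class, the 6 highest and 6 lowest called fold changes with separate groups, clusters of at least 3 within 10 kb, and the 3 on each side of the count limit, with their hosts; others are marked. The members, gene lists and named rule were chosen with earlier results of these data known, and the finer position groups after the data were seen.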

Additional observations from a re-analysis of the deposited data

Results flagged for a closer look

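The labelling effect differed between NLS and OMM at 4 of 67 loci, by the interaction term of the joint edgeR fit. Of all 14243 genes tested in that fit, 13% differed in either direction. MIR1244-1 differed by -2.51 (NLS minus OMM, log2 scale, edgeR adjusted p = 0.0185), falling at NLS and measuring 157 and 152 CPM in the OMM controls against 109 and 188 CPM in the labelled OMM libraries. MIR198 differed by -3.74 (edgeR adjusted p = 0.0351) and MIR7705 by -3.88 (edgeR adjusted p = 0.0311). MIR7705 measured 11.7 and 4.43 CPM in the OMM controls against 35.3 and 36.9 CPM. MIR7703 differed by 10.22 (edgeR adjusted p = 0.0349), with OMM control counts of 378 and 452 and labelled counts of 0 and 0, so the fitted size depends on the prior count and is no bound. MIR1244-1, MIR198 and MIR7705 lie wholly under an mRNA exon, and MIR7703 only by the short exonic stretch given above. None of the 4 effects at OMM passed on its own, and compartment, kit and RNA selection cannot be told apart.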

How the results depend on the processing

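Of the 67 loci called at NLS, 0 changed sign while called under any alternative. The 38 higher loci ranged from 16 to 62 with 1 library left out (16 with either labelled library left out, 62 without control library 3), and the 29 lower from 13 to 54. With at least 200 summed counts 7 of 50 loci were higher and 25 lower, with a median of -0.96 in place of 0.14. Over all genes tested, without that limit, 28.8% were higher and 28.5% lower. The controls were deeper (20746393 and 21096586 counts against 9531568 and 8039176), so a higher limit on raw counts favours loci high in the controls. With libraries scaled by size alone, 16.1% of all genes were lower in place of 28.5%. Library size alone gave 16 lower loci, 38 lower hosts in place of 70, 6 lower pathway genes in place of 10 and 15 lower loci under mRNA exons in place of 25, which ran from 13 to 44 with 1 library left out. The 17 higher intron loci away from exons ran from 6 to 23. At OMM, DESeq2 called 5 loci higher and 5 lower, no filter gave 1 lower, and left-out libraries gave 0 to 1 higher and 0 to 4 lower. The log2 fold changes of MIR1248, MIR3609 and MIR6516 turned positive without control library 3 and ran from -0.73 to 1.35, -1.17 to 1.31 and -0.67 to 0.59 with 1 library left out. Library size alone turned AGO2 to 0.42, DROSHA to 0.48, XPO5 to 0.13 and the host genes EIF4A2 to 0.48, IARS1 to 0.17, TRIM25 to 0.10 and TRRAP to 0.19; the median of all genes then moved from 0.14 to 0.66. The lone library of a group is then assumed to vary like the other group. With the column number as a replicate block, 60 loci were called at NLS, beside 51.6% of all genes. Of the 60, 59 were also called without the block, and the labels do not pair the libraries. Depth limits the loci near 60 counts most. The position groups and their alternatives were added after the data were seen.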
